A study of Mus musculus with 20 samples.

Results

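Small leucine-rich proteoglycans and a group of other secreted glycoproteins of the fibroblast matrix were followed across immune and non-immune cells of mouse mammary tumours. The 10 genes are Dcn (decorin), Lum (lumican), Bgn (biglycan), Fmod (fibromodulin), Ogn (osteoglycin), Aspn (asporin), Dpt (dermatopontin), Postn (periostin), Spon1 (F-spondin) and Aebp1 (adipocyte enhancer-binding protein). They were taken by name from a table of 52783 genes, and each of the 10 was found in it. The list was chosen with earlier results of these data known. Spon1, Dpt and Aebp1 had been singled out in the comparison of CD45+ cells between the tumours, so that comparison is given here as a description only.

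66cl4 and 67NR are cell lines from the same family of BALB/c mammary carcinoma lines as 4T1, so each kind of tumour rests on 1 line. 66cl4 tumours metastasise and 67NR tumours do not. Cells of either line, 1000000 per injection, were placed in the mammary fat pad of BALB/cJ mice, all female and 8 to 12 weeks old. Tumours were taken at day 21 to 26 and sorted on CD45, the surface phosphatase of leukocytes. The groups are CD45- and CD45+ cells of 5 66cl4 tumours and CD45- and CD45+ cells of 5 67NR tumours, which gives 20 libraries from 10 mice with 1 library per gate and mouse. The hosts were immunocompetent. The CD45- gate holds the injected carcinoma cells together with host fibroblasts, endothelial cells and pericytes. In such bulk samples, fewer cells of a type and less RNA per cell cannot be told apart.

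Small leucine-rich proteoglycans are secreted proteins whose core is built from repeats rich in leucine and which bind collagen fibrils. Decorin and biglycan carry chondroitin or dermatan sulfate chains, lumican and fibromodulin can carry keratan sulfate, and asporin carries no such chain. They set the spacing and width of fibrils and hold growth factors such as TGF-beta in the matrix. In carcinomas their main known source is the fibroblast of the stroma.

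Total counts were 12959951 to 28080226 per library. The 10 genes took 0.291 to 0.365% of the counts in 66cl4 CD45- libraries and 0.139 to 0.238% in 67NR CD45- libraries. In CD45+ libraries they took 0.0289 to 0.0748% (67NR) and 0.00436 to 0.0285% (66cl4). In 66cl4 animals 5 and 6, title and recorded cell type point to opposite gates. The libraries were assigned by title, and each comparison was repeated without these animals. Leukocyte markers (Ptprc, Laptm5, Tyrobp, Fcer1g, Itgb2 and Coro1a) followed the titles in both animals. They summed to 99065.5 (animal 5) and 97906.7 (animal 6) normalised counts in the libraries titled CD45+. In the libraries taken as CD45- they summed to 4548 and 3508. Ptprc, the gene of CD45, had a mean level 259 times as high in CD45+ as in CD45- cells of 66cl4 tumours and 82.1 times as high in 67NR tumours. The summed level of 8 fibroblast markers (Pdgfra, Pdgfrb, Col1a1, Col1a2, Col3a1, Fap, Thy1 and Cdh11) ran from 8705 to 13489 normalised counts in the CD45- libraries of 66cl4 tumours, and from 8849 to 14098 in those of 67NR tumours. Epithelial markers (Epcam, Krt8, Krt18, Krt19, Krt5, Krt14 and Cdh1) summed to between 6110 and 6868 in 66cl4 and to between 143 and 533 in 67NR CD45- libraries. Krt8 and Krt18 made up most of the 66cl4 sum, whereas Epcam was between 2.5 and 25.5 in those libraries, and the part of the epithelial markers in the results was not tested. Levels given as normalised counts are counts divided by DESeq2 size factors and are compared only within a gene. Values are listed in the order of the animals, which are 3, 4, 5, 6 and 7 for 66cl4 and 1, 4, 5, 6 and 7 for 67NR.

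**Figure D1:**
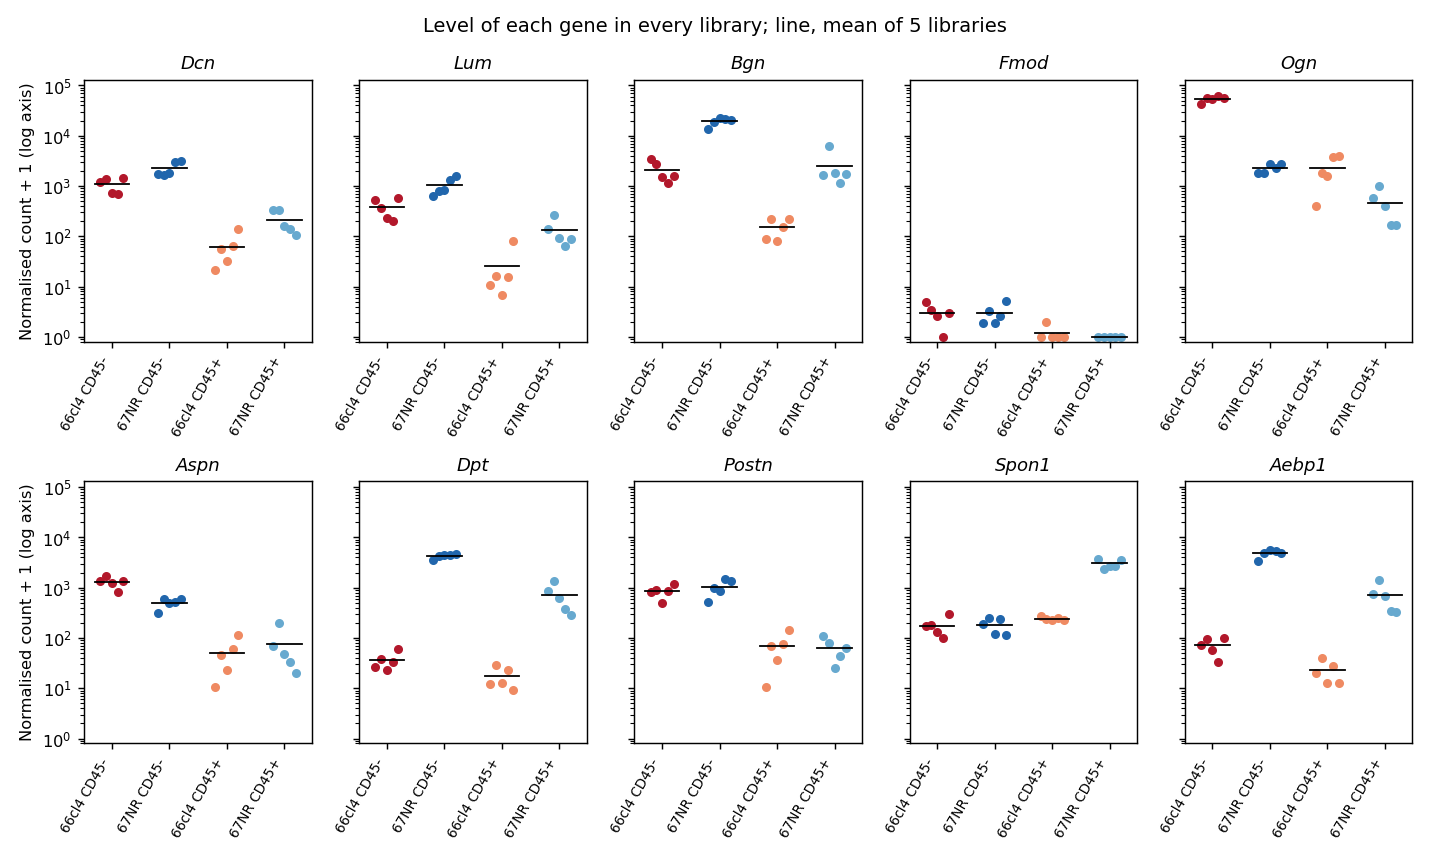
Normalised count plus 1 on a log axis for each of the 10 genes in the 20 libraries, 1 point per library in animal order, with the mean of each group of 5 as a line. Ogn stood at 42835 or more in the 66cl4 CD45- libraries only, Dpt and Aebp1 at 3422 or more in the 67NR CD45- libraries only, and Spon1 at 2411 or more in the 67NR CD45+ libraries only.

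The first comparison asked how the non-immune cells of the metastatic and the non-metastatic tumour differed. In CD45- cells, Ogn was 24.3-fold and Aspn 2.62-fold higher in 66cl4 than in 67NR tumours. Dpt was 116-fold, Aebp1 66-fold, Bgn 9.05-fold, Lum 2.65-fold and Dcn 2.03-fold lower. Postn and Spon1 were not called, and Fmod was too low to be tested. A gene was called when the adjusted p-value of edgeR's quasi-likelihood test was under 0.05 and the absolute log2 fold change over 1. Of the 9 genes tested, 7 were called, 2 of them higher and 5 lower in 66cl4. Over all 14844 genes tested in this comparison 32.2% were called, 13.2% as higher and 18.9% as lower. The median log2 fold change was -1.02 over the 9 genes and -0.01 over all genes tested. In each of the 7 genes called, the 5 libraries of one tumour lay apart from the 5 of the other. The share of all genes tested with such a separation was not counted, so nothing is read from it.

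Osteoglycin, also called mimecan, is a small proteoglycan of connective tissue and bone. Ogn (ENSMUSG00000021390) had 42835, 56222, 54217, 62963 and 56058 normalised counts in the 66cl4 CD45- libraries. In the 67NR CD45- libraries it had 1841, 1829, 2747, 2236 and 2781. Each 66cl4 library was above each 67NR library, with a log2 fold change of 4.61 ± 0.17 (SE), adjusted p = 3.66e-11. Aspn, whose protein binds collagen and competes with decorin for it, had 1355, 1688, 1235, 822 and 1343 in 66cl4 and 309.8, 588, 508, 526 and 591 in 67NR CD45- libraries. The groups did not overlap, and the log2 fold change was 1.39 ± 0.20 (SE), adjusted p = 5.23e-05.

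In the RefSeq gene order Ecm2, Aspn, Omd and Ogn follow each other on chromosome 13 with no other protein-coding gene starting between them. Omd encodes osteomodulin and Ecm2 a leucine-rich matrix protein. Both are outside the 10 genes and were named for their position. Omd had 873, 1248, 1165, 1609 and 1274 normalised counts in 66cl4 CD45- libraries and 29, 29.3, 39.5, 24.2 and 40.9 in 67NR CD45- libraries. Its log2 fold change was 5.28 ± 0.19 (SE), adjusted p = 3.66e-11. Ecm2 was 189.8 to 249.5 in 66cl4 and 36.9 to 54 in 67NR CD45- libraries, a log2 fold change of 2.19 ± 0.14 (SE), adjusted p = 8.03e-09. All 4 genes of the row were called as higher in 66cl4 CD45- cells, with the size of the difference running from 1.39 for Aspn to 5.28 for Omd. Cenpp, which encodes a centromere protein, encloses the 4 genes in the annotation, and its log2 fold change was 1.05 (adjusted p = 8.09e-05). On the far side of Ogn, Nol8 had a log2 fold change of 0.63 (adjusted p = 6.30e-04), under the size a call required. Iars after it had 1.43 (adjusted p = 8.32e-10). On the other side Ippk, which starts before Cenpp, had 1.12 (adjusted p = 4.41e-06).

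**Figure D2:**
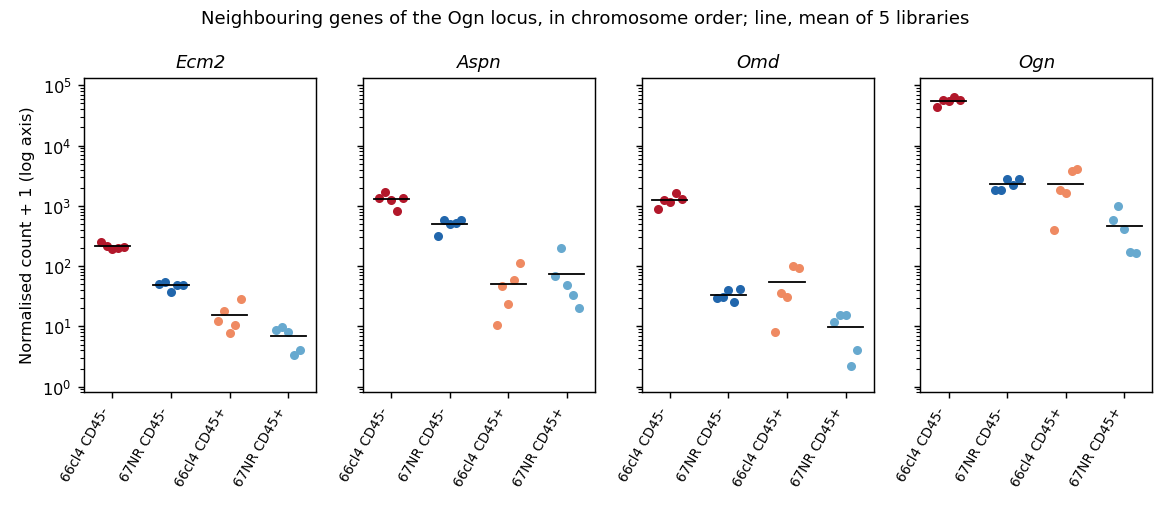
Normalised count plus 1 on a log axis for the neighbouring genes Ecm2, Aspn, Omd and Ogn, 1 point per library, with the mean of each group of 5 libraries as a line. In each of the 4 genes the 66cl4 CD45- libraries stood above the 67NR CD45- libraries, by the widest margin in Omd and Ogn.

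The promoters of these 4 genes are shown because the genes lie side by side and moved in 1 direction by unequal amounts. Promoters of 7 of the 10 genes were found in RefSeq's table for GRCm38.p6, each from 250 bases before to 50 bases after the annotated start. Capitals mark matches on either strand to a TATA box (TATAAA), an AP-1 site (TGANTCA), a TEAD site (GGAATG), a RUNX site (TGTGGT) or a CCAAT box (CCAAT). All 4 windows are on the plus strand, Ecm2 at chr13:49504560-49504859, Aspn at chr13:49544193-49544492, Omd at chr13:49582212-49582511 and Ogn at chr13:49607765-49608064.
Ecm2: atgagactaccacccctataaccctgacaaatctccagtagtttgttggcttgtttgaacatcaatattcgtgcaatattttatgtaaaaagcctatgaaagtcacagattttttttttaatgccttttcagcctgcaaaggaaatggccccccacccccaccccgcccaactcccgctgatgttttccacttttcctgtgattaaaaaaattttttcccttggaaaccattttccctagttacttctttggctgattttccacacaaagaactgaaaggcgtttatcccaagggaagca
Aspn: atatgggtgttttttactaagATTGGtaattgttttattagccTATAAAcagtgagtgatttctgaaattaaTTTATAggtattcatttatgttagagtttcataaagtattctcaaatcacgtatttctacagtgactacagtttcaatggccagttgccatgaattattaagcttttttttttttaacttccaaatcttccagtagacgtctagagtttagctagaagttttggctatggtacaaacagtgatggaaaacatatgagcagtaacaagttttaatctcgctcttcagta
Omd: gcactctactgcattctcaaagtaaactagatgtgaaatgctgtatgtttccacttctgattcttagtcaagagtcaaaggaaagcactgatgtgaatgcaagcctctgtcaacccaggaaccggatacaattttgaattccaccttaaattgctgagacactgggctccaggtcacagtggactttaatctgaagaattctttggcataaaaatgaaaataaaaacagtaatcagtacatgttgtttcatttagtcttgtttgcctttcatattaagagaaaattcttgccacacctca
Ogn: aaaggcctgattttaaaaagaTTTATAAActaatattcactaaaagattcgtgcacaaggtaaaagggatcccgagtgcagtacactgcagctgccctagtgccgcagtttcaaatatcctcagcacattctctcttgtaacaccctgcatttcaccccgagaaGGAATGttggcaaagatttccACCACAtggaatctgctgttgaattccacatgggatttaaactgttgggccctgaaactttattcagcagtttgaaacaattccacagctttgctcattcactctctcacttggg

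In the Ogn window TATAAA was met on both strands in overlapping letters that begin at -229 from the start. A GGAATG began at -86 and the reverse complement of TGTGGT at -65. In the Aspn window TATAAA was met at -207 and, on the other strand, at -178, and the reverse complement of CCAAT at -229. The Omd and Ecm2 windows held none of the 5 motifs. Over 32851 promoters of the same length, 13.6% held TATAAA, 7.81% TGANTCA, 14.7% GGAATG, 16.8% TGTGGT and 37.4% CCAAT. These matches describe letters in a window and do not show that a factor binds there.

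Dermatopontin binds decorin and TGF-beta and speeds the assembly of collagen fibrils. Dpt (ENSMUSG00000026574) had 25.2, 36.8, 22.5, 32.9 and 60.9 normalised counts in the 66cl4 CD45- libraries and 3507, 4215, 4390.4, 4498 and 4696 in the 67NR CD45- libraries. The lowest 67NR library was above the highest 66cl4 library, with a log2 fold change of -6.86 ± 0.22 (SE), adjusted p = 1.41e-11. Aebp1 encodes a secreted protein of the carboxypeptidase-like family that binds collagen. Aebp1 (ENSMUSG00000020473) had 71.7, 94.1, 55.8, 31.9 and 98.8 in 66cl4 and 3422, 4822, 5520.4, 5437 and 4888 in 67NR CD45- libraries. The groups did not overlap here either (log2 fold change -6.04 ± 0.27 (SE), adjusted p = 1.52e-09). Pold2, which overlaps one end of Aebp1 in the annotation, had a log2 fold change of -0.26 and was not called. The fibroblast marker list, read beside these values, held 1 gene called higher (Pdgfrb), 2 called lower (Col3a1 and Fap) and 5 not called of 8. Endothelial markers were called lower in 66cl4 CD45- cells in 5 of 6 genes and pericyte markers in 4 of 4. The summed endothelial level ran from 519 to 1039 normalised counts in 66cl4 libraries, against 1050.3 to 4193 in 67NR, and the summed pericyte level from 355 to 1032, against 1114 to 4568. Mast cell markers were also called lower in 4 of 4 genes (median log2 fold change -8.19), macrophage markers in 3 of 7 (median -1.77) and leukocyte markers in 4 of 6 (median -1.64), with 1 leukocyte marker higher (Itgb2, named after its value was seen). Summed over the list, macrophage markers ran from 1246 to 4399 in the CD45- libraries of 67NR tumours and from 153 to 1886 in those of 66cl4. Leukocyte markers summed over their list were higher in 66cl4, at 3306 to 4548 against 1077 to 2341, through Itgb2 alone. The mean level of Itgb2 was 14.8 times as high in 66cl4 as in 67NR CD45- cells. Those of Ptprc, Laptm5, Tyrobp, Fcer1g and Coro1a were lower in 66cl4, at 0.25 to 0.70 times the 67NR level. The part of these cell types in the differences of Dpt, Aebp1 and Bgn was not tested.

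The windows of Dpt (chr1:164796413-164796712) and Aebp1 (chr11:5861616-5861915), both on the plus strand, are shown because the levels of these 2 genes were the most alike of any pair among the 10. That likeness is a description, since both genes were picked from a comparison of CD45+ libraries that enter it.
Dpt: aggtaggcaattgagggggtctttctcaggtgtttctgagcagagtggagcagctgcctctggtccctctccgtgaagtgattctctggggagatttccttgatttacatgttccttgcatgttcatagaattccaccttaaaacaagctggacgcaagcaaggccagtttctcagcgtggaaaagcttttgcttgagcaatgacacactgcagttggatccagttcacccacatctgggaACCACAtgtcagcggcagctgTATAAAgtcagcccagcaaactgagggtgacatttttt
Aebp1: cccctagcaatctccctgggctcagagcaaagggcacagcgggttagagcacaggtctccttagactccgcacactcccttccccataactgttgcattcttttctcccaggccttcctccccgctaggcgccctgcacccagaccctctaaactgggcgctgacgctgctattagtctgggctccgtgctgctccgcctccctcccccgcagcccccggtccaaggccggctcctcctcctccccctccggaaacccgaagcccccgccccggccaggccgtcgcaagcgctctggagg

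The Dpt window held TATAAA at 13 bases after the start and the reverse complement of TGTGGT at -9. The Aebp1 window held none of the 5 motifs, so no motif of this search was shared by both windows.

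Of the 3 proteoglycans among the 10 genes that were lower in 66cl4 CD45- cells, biglycan had the largest fold change. Bgn (ENSMUSG00000031375) had 3373, 2796, 1530.0, 1142 and 1602 normalised counts in 66cl4 and 13790.5, 18572, 22833, 21247 and 20275 in 67NR CD45- libraries. The log2 fold change was -3.18 ± 0.30 (SE), adjusted p = 2.48e-06. Dcn, whose protein binds the surface of collagen fibrils and TGF-beta, had 1217, 1399.7, 740.0, 701 and 1453 in 66cl4 and 1724, 1640.0, 1841, 3072 and 3158 in 67NR CD45- libraries. The groups did not overlap, but the log2 fold change of -1.02 ± 0.27 (SE), adjusted p = 0.00677 was close to the size a call required. Without 66cl4 animals 5 and 6 it was -0.70 (adjusted p = 0.0270) and Dcn was not called. Leaving out 66cl4 CD45- animal 5 or 6, or 67NR CD45- animal 6 or 7, also brought it under that size, to between -0.90 and -0.87. With no filter on low counts it was -0.98 (adjusted p = 0.0353), and tested for a change beyond 1 on the log2 scale its adjusted p was 0.711, so the call was lost there too. Lum, the keratan sulfate proteoglycan of cornea and skin, had 526, 358, 236, 197 and 589 in 66cl4 and 626, 805, 832, 1289.8 and 1583 in 67NR CD45- libraries. Its log2 fold change was -1.40 ± 0.36 (SE), adjusted p = 0.00564, and tested for a change beyond 1 on the log2 scale its adjusted p was 0.185. Kera, which encodes keratocan, lies next to Lum in the row Dcn, Lum, Kera and Epyc on chromosome 10. Kera was 6.37 to 29.2 in 66cl4 and 21.1 to 36.8 in 67NR CD45- libraries, a log2 fold change of -1.003 ± 0.34 (SE), adjusted p = 0.0184. The 66cl4 and 67NR libraries of Kera overlapped, unlike those of Dcn and Lum. Epyc was at 0 to 5.27 normalised counts in all 20 libraries and was not tested.

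Fmod, which in tendon binds the same collagen as lumican, was at or near 0 throughout. The CD45- libraries ran from 0 to 3.98 normalised counts (66cl4) and from 0.88 to 4.09 (67NR). In 67NR CD45+ libraries it had a count of 0 in all 5, which allows up to 3 counts per library, and in 66cl4 CD45+ libraries 0 to 0.96. Its neighbour Prelp, which encodes a proteoglycan of cartilage and basement membrane, was 54.2 to 409 in 66cl4 and 45 to 159 in 67NR CD45- libraries. The groups overlapped, with a log2 fold change of 1.48 ± 0.54 (SE), adjusted p = 0.0338. Optc, the gene on the other side of Prelp, reached 2.99 normalised counts at most.

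Postn and Spon1 were the 2 genes tested that were not called between the tumours in CD45- cells. Postn, a matrix protein of remodelling stroma that binds integrins, had 829.5, 917, 498, 870.0 and 1186 normalised counts in 66cl4 and 524, 997, 875, 1491 and 1391 in 67NR CD45- libraries. These ranges overlapped, with a log2 fold change of -0.26 ± 0.29 (SE), adjusted p = 0.445. Spon1, a secreted protein with thrombospondin repeats first known from the floor plate of the neural tube, had 173, 184, 132, 98.8 and 294 in 66cl4 and 192, 254, 119, 243 and 115 in 67NR CD45- libraries. Its log2 fold change was -0.03 ± 0.30 (SE), adjusted p = 0.926, and its sign turned when libraries were left out, up to 0.29 without 66cl4 animals 5 and 6.

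**Figure D3:**
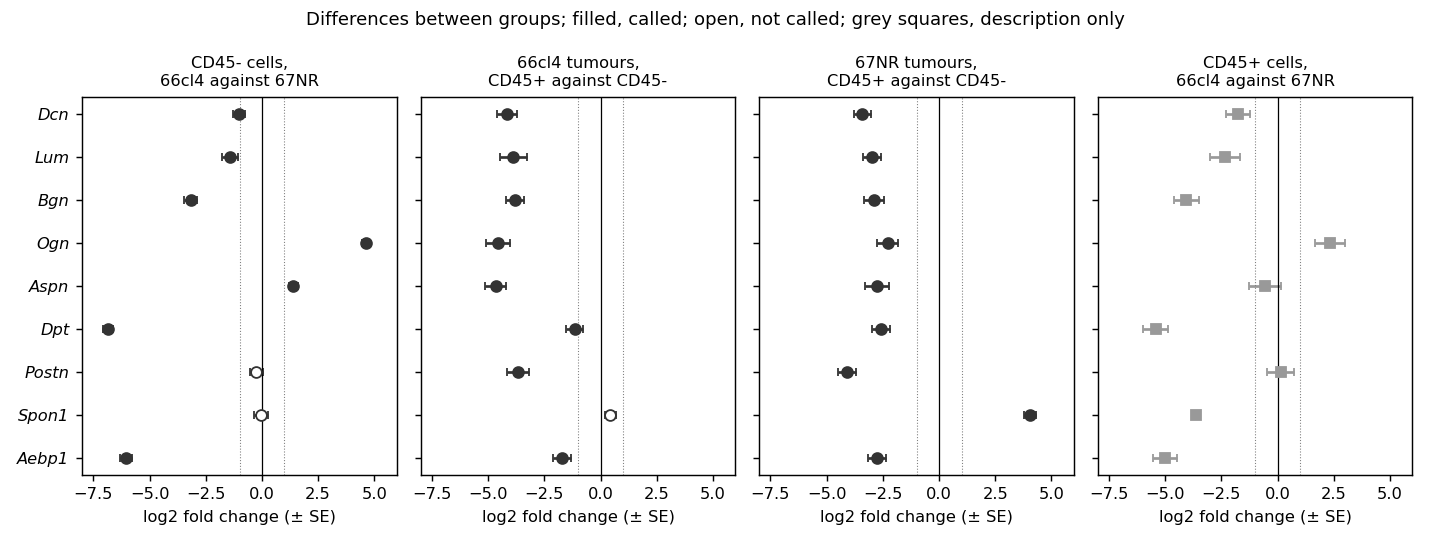
Log2 fold change of the 9 genes tested, with its SE, in 4 comparisons, where the first group named is set against the second. In the first 3 panels filled points were called and open points were not. For Spon1, Dpt and Aebp1 the calls between the gates are a description, since CD45+ libraries were used in picking them. Grey squares, in CD45+ cells between tumours, carry no call because members were picked from that comparison, and dotted lines mark a log2 fold change of 1 in either direction. Spon1 was the only one of the 9 genes to the right of 0 in both panels of CD45+ against CD45- cells.

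The order of the genes was read from TPM, a transcript level scaled to length and depth on which genes can be compared. In 66cl4 CD45- cells Ogn was at 2036 ± 248 TPM (SD, n = 5), followed by Bgn at 75.3 ± 33.8 and Aspn at 53.4 ± 13.6. The levels of Bgn and Aspn lay within their spread of each other. In 67NR CD45- cells Bgn came first at 669 ± 138 TPM, then Dpt at 228 ± 37.9, Aebp1 at 116 ± 25.1 and Ogn at 81.6 ± 15.7. Dpt and Aebp1, the second and the third in 67NR, were the lowest of the 9 genes tested in 66cl4 CD45- cells, at 1.99 ± 0.9 and 1.78 ± 0.72 TPM.

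Other genes of the matrix were taken from lists and counted whole. Of 12 other small leucine-rich proteoglycans, 6 were tested in CD45- cells. Of these, 4 were higher in 66cl4 (Omd, Ecm2, Podnl1 and Prelp), 1 was lower (Kera) and 1 was not called, with a median log2 fold change of 1.78. Podnl1, which encodes a podocan-like protein, had a mean of 246 ± 30.6 normalised counts in 66cl4 against 59 ± 14.9 in 67NR CD45- cells (SD, n = 5). Of 23 other proteoglycans, 14 were tested, and 1 was higher, 8 lower and 5 not called (median -1.52). Vcan, the large chondroitin sulfate proteoglycan versican, was at 112 ± 47.9 in 66cl4 against 11007 ± 1986 in 67NR CD45- cells, and its log2 fold change was -6.59 ± 0.28 (SE), adjusted p = 7.36e-10. Vcan was also at 15406 ± 7217 in 66cl4 CD45+ cells. Sdc3, Gpc6 and Esm1, a syndecan, a glypican and an endothelial proteoglycan, had log2 fold changes of -5.06, -3.96 and -3.82.

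Enzymes that build glycosaminoglycan chains were mixed, with 3 of 19 higher, 6 lower and 10 not called in 66cl4 CD45- cells (median -0.49). Chst15 and Csgalnact1, which act on chondroitin sulfate, had log2 fold changes of -4.89 ± 0.23 (SE) and -3.37 ± 0.16 (SE), and Xylt1, which starts the chain, -1.85 ± 0.35 (SE). Chst3 was at 0 to 1.06 normalised counts in 66cl4 and at 102 to 126 in 67NR CD45- libraries. Of 35 other matrix glycoproteins tested, 6 were higher, 17 lower and 12 not called (median -0.99). The 5 CCN genes of that list, which encode matricellular proteins, were not a list of their own. They were put together with the values known, and nothing is read from their count of 4 higher and 1 lower in 66cl4. The log2 fold change was 5.72 ± 0.18 (SE) for Ccn4, 4.70 ± 0.37 (SE) for Ccn2, 1.135 ± 0.19 (SE) for Ccn1, 1.13 ± 0.27 (SE) for Ccn5 and -5.97 ± 0.25 (SE) for Ccn3. Efemp2, a fibulin of elastic fibres, had a log2 fold change of -5.12 ± 0.23 (SE). Among 17 receptors, processing enzymes and growth factors that bind these proteins, 5 were higher, 4 lower and 8 not called (median 0.19). Tgfb2 (3.09 ± 0.23 (SE)) and Tgfb1 (1.95 ± 0.15 (SE)), ligands that decorin and biglycan hold, were higher in 66cl4 CD45- cells. The integrin genes Itga2 (-3.06 ± 0.57 (SE)) and Itgb3 (-2.02 ± 0.38 (SE)) were lower. Of the other integrin genes in the list, Itgb5 was higher (1.45 ± 0.12 (SE)), and Itgav and Itgb1 were not called.

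**Figure D4:**
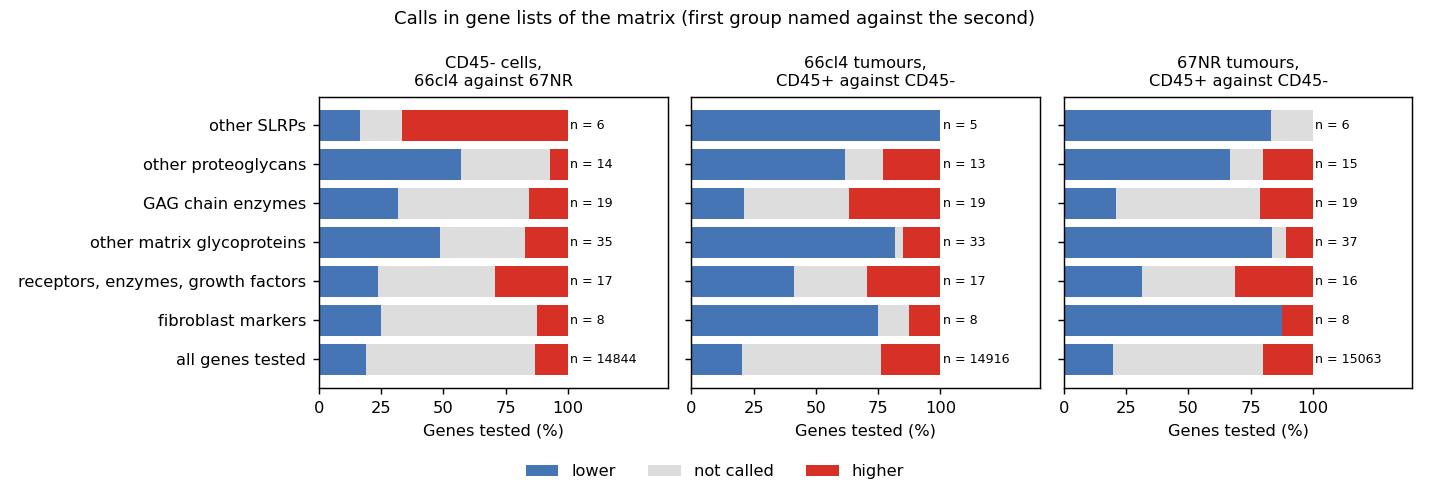
Share of the genes tested in each list that were called lower, not called or called higher in CD45- cells between tumours and in CD45+ against CD45- cells of each tumour, with the number tested beside each bar. SLRP stands for small leucine-rich proteoglycan and GAG for glycosaminoglycan. In CD45- cells 4 of 6 other SLRPs were higher in 66cl4, while 17 of 35 other matrix glycoproteins were lower.

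The next comparisons asked which gate held the transcripts. In 66cl4 tumours 8 of the 9 genes tested were lower in CD45+ than in CD45- cells and Spon1 was not called. Over all 14916 genes 44.4% were called, 20.5% as lower and 23.9% as higher in the CD45+ gate. All 9 were called in 67NR tumours, 8 as lower and Spon1 as higher in CD45+ cells. Between the gates the calls of Spon1, Dpt and Aebp1 are a description in both tumours, since the CD45+ libraries were used in picking these genes. Over all 15063 genes tested there 39.8% were called, 20.2% as higher and 19.6% as lower. The median log2 fold change of the 9 genes was -3.80 in 66cl4 and -2.76 in 67NR tumours, against 0.00 and -0.05 over all genes tested. Libraries of both gates came from the same animals, and the calls of the 9 genes were the same with the animal as a replicate block.

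In 66cl4 tumours the log2 fold change of CD45+ against CD45- cells was -4.67 ± 0.48 (SE) for Aspn, -4.56 ± 0.54 (SE) for Ogn, -4.14 ± 0.45 (SE) for Dcn, -3.88 ± 0.61 (SE) for Lum, -3.80 ± 0.40 (SE) for Bgn and -3.66 ± 0.49 (SE) for Postn. Adjusted p-values of these 6 genes were 2.93e-06 to 1.17e-04. Ogn still had 396, 1838, 1605, 3792 and 4038 normalised counts in the 66cl4 CD45+ libraries. By TPM it was the first of the 10 genes there, at 85.5 ± 57.1 against 5.52 ± 2.89 for Bgn, the next. Within an animal the CD45+ level of Ogn was 0.93, 3.27, 2.96, 6.02 and 7.2% of the CD45- level. Dpt and Aebp1, both low in 66cl4, had smaller fold changes between the gates, though this was not tested against the other genes. Dpt had 11.1, 27.7, 11.6, 22.1 and 8.45 normalised counts in CD45+ cells, a log2 fold change of -1.16 ± 0.38 (SE). Dpt was not called without the CD45- library of animal 7 (-0.86) or the CD45+ library of animal 7 (-0.94). Aebp1 had 19.5, 39.2, 11.6, 27.4 and 11.8 in CD45+ cells, a log2 fold change of -1.71 ± 0.39 (SE). Both genes were picked from a comparison that used these CD45+ libraries. Their values here are therefore a description and no p-value is given.

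In 67NR tumours the log2 fold change was -4.09 ± 0.40 (SE) for Postn, -3.42 ± 0.38 (SE) for Dcn, -2.97 ± 0.41 (SE) for Lum, -2.91 ± 0.45 (SE) for Bgn, -2.76 ± 0.53 (SE) for Aspn, -2.75 ± 0.39 (SE) for Aebp1, -2.58 ± 0.38 (SE) for Dpt and -2.29 ± 0.46 (SE) for Ogn. With Dpt and Aebp1 left out, adjusted p-values of these genes were 4.88e-06 to 9.91e-04. Dpt and Aebp1 were picked from a comparison that used these CD45+ libraries, so their values here are a description. The call of each of the 9 genes held under every alternative run for this comparison. Bgn had 1695, 6327, 1845, 1125 and 1752 normalised counts in the 67NR CD45+ libraries, and within an animal its CD45+ level was 12.3, 34.1, 8.08, 5.3 and 8.64% of the CD45- level. The library of animal 4 stood far above the other 4 in this gate.

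Fibroblast markers gave a scale for these values. The mean CD45+ level, as a share of the mean CD45- level, ran from 4.03 to 8.81% in 66cl4 tumours, and from 5.41 to 15.4% in those of 67NR, for Pdgfra, Pdgfrb, Col1a1, Col1a2, Col3a1 and Cdh11. Of the same list, Fap was at 122% and 46.9%, and Thy1, which T cells also express, at 736% and 746%. Dcn stood at 5.59% in 66cl4 and 9.29% in 67NR tumours, Lum at 6.52% and 12.7%, Bgn at 7.25% and 13.2%, and Postn at 7.82% and 5.95%. Aspn was at 3.87% and 14.6% and Ogn at 4.29% and 20.2%. Dpt was at 45.4% and 16.5% and Aebp1 at 31.1% and 14.7%. The part of CD45- cells left in the CD45+ gate was not tested.

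The other lists differed in direction between the gates. Of the other small leucine-rich proteoglycans, 5 of 5 tested were lower in CD45+ cells of 66cl4 tumours and 5 of 6 in 67NR tumours, with Prelp at -4.61 ± 0.55 (SE) and -2.80 ± 0.57 (SE) on the log2 scale. Of the other matrix glycoproteins, 27 of 33 and 31 of 37 were lower, and 5 and 4 were higher. Tgfbi, a fasciclin-domain protein related to periostin, was among those higher in CD45+ cells, at 8.28 ± 0.67 (SE) and 5.98 ± 0.21 (SE). Of the other proteoglycans, 8 of 13 were lower and 3 higher in CD45+ cells of 66cl4 tumours, and 10 of 15 were lower and 3 higher in 67NR tumours. The receptors, processing enzymes and growth factors were divided, with 5 higher and 7 lower of 17 in 66cl4 tumours and 5 higher and 5 lower of 16 in 67NR tumours. Enzymes of glycosaminoglycan chains were divided as well, with 7 higher and 4 lower of 19 in 66cl4 tumours and 4 higher and 4 lower of 19 in 67NR tumours. Xylt1 was higher in CD45+ cells of both, at 7.33 ± 0.30 (SE) and 3.31 ± 0.35 (SE).

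**Figure D5:**
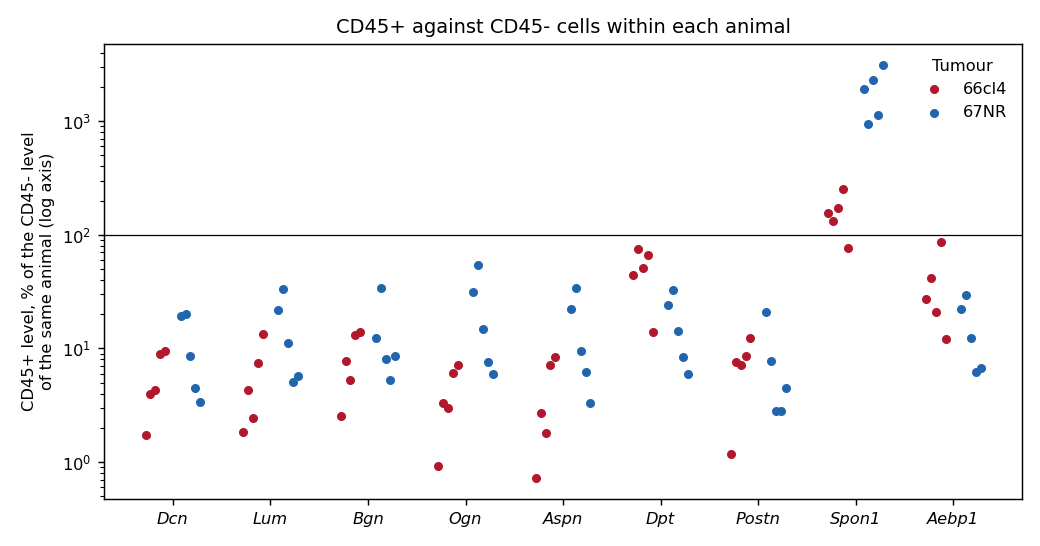
CD45+ level as a percentage of the CD45- level of the same animal, on a log axis, for the 9 genes above the floor, 1 point per animal with 66cl4 in red and 67NR in blue, and a line at 100%. The points of Spon1 in 67NR tumours lay far above 100%, whereas the other 8 genes lay below 100% in each of the 10 animals.

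Spon1 was the exception among the 10 genes. In the 67NR CD45+ libraries it had 3733, 2411, 2734, 2761 and 3610.0 normalised counts, against 192, 254, 119, 243 and 115 in the CD45- libraries of the same animals. The 2 sets of libraries did not overlap, and the log2 fold change was 4.04 ± 0.26 (SE). These CD45+ libraries were part of the comparison from which Spon1 was picked for its difference. Its values in them are therefore a description and no p-value is given. In each of the 5 animals the CD45+ level was higher, at 1943, 948, 2306, 1136 and 3152% of the CD45- level. In 66cl4 tumours Spon1 had 269.8, 243, 228, 250.4 and 227 in CD45+ and 173, 184, 132, 98.8 and 294 in CD45- libraries. These overlapped, with a log2 fold change of 0.44 ± 0.23 (SE) that was not called. The 66cl4 CD45+ libraries were used in picking Spon1 as well. The difference between these effects was not tested. Mast cell markers (Cpa3, Mcpt4, Cma1 and Tpsb2) summed to 18575 to 25855 normalised counts in 67NR CD45+ libraries, 1108 to 3627 in 66cl4 CD45+ libraries and 0 to 51.9 in 66cl4 CD45- libraries. In 67NR CD45- libraries they summed to 437, 499.6, 4804, 6105 and 17770. Between the tumours, all 4 mast cell markers were called lower in 66cl4 CD45+ cells (median log2 fold change -3.22). The part of mast cells in the values of Spon1 was not tested.

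In CD45+ cells the tumours are set side by side as a description, because members were picked from this comparison. Ogn was 5.04-fold higher in 66cl4. Dpt was 43.1-fold, Aebp1 32.2-fold, Bgn 16.6-fold, Spon1 12.4-fold, Lum 5.06-fold and Dcn 3.39-fold lower. The log2 fold changes of Aspn and Postn were -0.55 and 0.13. The rule for a call took in 7 of the 9 genes, 1 higher and 6 lower, and 11.8% of all 14676 genes, 5.01% as higher and 6.82% as lower. Nothing is read from the count of 7, since the choice of members used this comparison.

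Dpt had 844, 1385, 629, 381 and 279.8 normalised counts in 67NR CD45+ libraries and Aebp1 765, 1422, 683, 338 and 328, each above all 5 of the 66cl4 CD45+ libraries. Ogn had 574, 996, 404, 170.2 and 167 in 67NR CD45+ libraries, and these overlapped the 66cl4 libraries, of which animal 3 was the lowest at 396. Dcn had 329, 331, 158, 138 and 107 in 67NR and 20.9, 55.4, 31.8, 63.1 and 137 in 66cl4 CD45+ libraries, with an overlap through animal 7 of both tumours. Lum had 136, 268, 92.5, 64.7 and 89.5 and 9.74, 15.3, 5.79, 14.7 and 78.6, again with an overlap through 66cl4 animal 7. The comparison shares its libraries with those of CD45+ against CD45- cells, so the values are not independent. In CD45- cells the log2 fold changes of the same genes were 4.61 for Ogn, -6.86 for Dpt, -6.04 for Aebp1, -3.18 for Bgn and -0.03 for Spon1. In CD45+ cells they were 2.33, -5.43, -5.01, -4.06 and -3.63. The other genes tested had, in CD45- and then CD45+ cells, -1.02 and -1.76 (Dcn), -1.40 and -2.34 (Lum), 1.39 and -0.55 (Aspn) and -0.26 and 0.13 (Postn). Spon1 and Postn were thus near 0 in CD45- cells, and Spon1 was picked on its CD45+ value.

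Libraries that were high for 1 of the genes were often high for several. Among 66cl4 CD45- libraries, animal 7 was the highest in 6 of 9 genes and animal 6 the lowest in 6. Among 67NR CD45+ libraries, animal 4 was the highest in 7 of 9 genes and animal 7 the lowest in 5. Among 66cl4 CD45+ libraries, animal 7 was the highest in 6.

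The likeness of patterns was measured as the root mean square difference of log2 CPM, each gene centred on its mean, over the 20 libraries and 16453 genes. It is a description, since the libraries share groups. The gene most like Ogn was Omd, at 0.380, followed by Pcdh17 and Sema3a, and the nearest of the 10 genes was Aspn at 1.56. Dpt and Aebp1 were each other's nearest gene, at 0.468. Both were picked from a comparison of CD45+ libraries that enter this measure, so nothing is read from their likeness. Lum was nearest to Dcn, at 0.508, whereas Dcn was nearest to the collagen gene Col5a1 (0.384), then Fbln2 and Col3a1. Aspn was nearest to Pcolce (0.408), which encodes an enhancer of procollagen processing, Postn to Thbs2 (0.538) and Col1a1 (0.579), and Bgn to the glypican Gpc4 (0.512). Spon1 was nearest to A630012P03Rik (0.531), and the closest of the 10 genes, Lum, stood at 3.16.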

How the data were processed

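Libraries of the sorted cells were prepared with a SENSE mRNA-Seq kit and sequenced as single reads. The authors made FASTQ files with bcl2fastq, trimmed reads with fastp, quantified transcripts with Salmon 1.3.0, summed the expected counts to genes with tximport and deposited them without normalisation. The sources name GRCh38, a human reference, although the gene identifiers are those of mouse. Symbols were matched to 51492 of 52783 identifiers.

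Estimated counts were rounded to whole numbers (largest change 0.5) and tested by the quasi-likelihood method in edgeR 4.0.16 under R 4.3.3 (TMM, minimum count 10, minimum total 15, robust fit), with Benjamini-Hochberg adjustment over all genes tested and only the 2 groups compared in a fit. The SE of a log2 fold change was derived from that test, as the absolute log2 fold change divided by the square root of the F statistic. For levels, counts were scaled with DESeq2 1.42.0 size factors. TPM used the longest GENCODE M21 transcript of each gene, and 1291 genes without a length, with 2.58% of the counts, were left out. Libraries held 12959951 to 28080226 counts. A count of 0 allows up to 3 counts, an allowance that covers counting error. Replicates differed by more than sampling noise. Libraries were grouped by title. 1 title spells its gate as CD46, which was read as CD45. Members and lists were chosen with earlier results of these data known. Of each list, at most 4 called genes were named, by the size of their log2 fold change in CD45- cells and with a mean of at least 10 normalised counts, as were neighbours of members on the chromosome whatever their values. Ccn1 and Ccn5 fell outside this rule and were named so that the CCN genes stand together. Itgb5, Itgav and Itgb1 also fell outside it and were named, with their values known, so that the integrin genes stand together. Cenpp, Ippk, Nol8, Iars and Pold2 were named for their position after their values were seen. Between the gates, at most 2 genes of a list were named. Cell type markers were read as whole lists.

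The 2 gates of a tumour come from 1 animal, which pairs them. Their deviations from the group means correlated at 0.0251 to 0.148 (66cl4) and at -0.00326 to 0.324 (67NR). Alternatives were the Wald test in DESeq2, RLE factors or unscaled totals as library sizes, no filter or a minimum of 10 counts in 5 libraries, a common fit of 20 libraries, a test for changes beyond 1 on the log2 scale, the replicate block, the data without 66cl4 animals 5 and 6, and without each single library. For levels, CPM and TPM were the alternatives. The tests were tried on simulated counts. Figures were drawn with matplotlib 3.10.9.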

Additional observations from a re-analysis of the deposited data

Results flagged for a closer look

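Of 36 groups of 5 libraries examined gene by gene, 3 held a library far from the other 4, where 1.8 are to be met by chance. Lum had 78.6 normalised counts in the 66cl4 CD45+ library of animal 7, against 5.79 to 15.3 in the other 4. Bgn had 6327 in the 67NR CD45+ library of animal 4, against 1125 to 1845. Aspn had 200.04 in the same library, against 19.5 to 68.7. The 67NR CD45+ library of animal 4 was also the highest of its group in 7 of 9 genes.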

How the results depend on the processing

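Of 675 values of the log2 fold change of the 9 genes under other settings, 625 kept their sign and their side of the threshold, 40 kept their sign and lost the call, and 10 changed sign. In CD45+ cells between tumours, where members were picked and nothing is read from the count, 4 genes in place of 7 were called with no filter on low counts, in the test for changes beyond 1 on the log2 scale, with the replicate block and without 66cl4 animals 5 and 6, and over all genes 513 in place of 1736 were called in that test. Between tumours, in CD45+ as in CD45- cells, the block joins libraries that share a number only. In the comparisons other than CD45+ cells between tumours it changed no call of the 9 genes. Deviations of same-numbered libraries correlated at -0.145 to 0.00874 between the tumours in CD45- and 0.00594 to 0.0829 in CD45+ cells. The log2 fold change of Spon1 in CD45- cells changed sign to 0.00324 with no filter and 0.288 without 66cl4 animals 5 and 6, and ran from -0.280 to 0.126 with 1 library left out. In CD45+ cells that of Aspn changed sign to 0.00426 with the replicate block and ran from -1.09 to 0.274 with 1 library left out, and that of Postn ran from -0.376 to 0.403. The cause was not tested. Genes called in CD45- cells numbered 6 to 7 of the 9 with 1 library left out, 7 to 8 between the gates of 66cl4 tumours and 9 in each case for 67NR tumours. Depth limits Fmod, Epyc and Optc, which were below the filter.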
